A study of Mus musculus with 6 samples.

Results

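MHC class I and antigen processing genes are described here as 10 listed genes out of the 54532 genes in the count table: *H2-K1*, *H2-D1*, *H2-Q4*, *H2-T22*, *H2-T23*, *B2m*, *Tap1*, *Tap2*, *Tapbp* and *Nlrc5*. They were chosen by symbol once counts in *Smyd1-KO* and WT hearts were known, so their differences between the genotypes are a description, and calls among them are counted only beside those of all genes and support nothing. RNA-seq had covered 6 E9.5 heart samples, 3 *Smyd1-KO* and 3 WT, to find which transcripts depend on SMYD1, a histone methyltransferase of striated muscle. Whether a sample held 1 heart or a pool is not given in the sources used here, and each sample is called a heart below. The knockout is a conventional null allele carried by all cells of the embryo. It came from *Smyd1+/-* mice of the Jackson Laboratory, which also supplied WT mice, and embryos of both sexes could be used. For staining at this age the study crossed *Smyd1+/-* females with *Smyd1+/-* males, and for VEGFA it names WT littermates as the comparison. Litters of the sequenced hearts are not given in the sources used here. The study gives the strain by its stock number, and its genetic background and the H2 haplotype of these embryos are not given in the sources used here. Total counts ran from 48627825 in *Smyd1-KO* replicate 1 to 64217529 in WT replicate 3. Levels per heart are CPM, the counts of a gene per 1e6 counts of the library scaled with TMM factors, fold changes are on the log2 scale as *Smyd1-KO* minus WT with their standard error (SE), and *n* is 3 hearts per genotype throughout, where the study's plot of principal components is described with 4 replicates of each.

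An MHC class I molecule is a heavy chain paired with β2-microglobulin, and it displays short peptides of cytosolic origin on the cell surface to CD8 T cells and natural killer cells. The TAP1-TAP2 transporter carries the peptides into the endoplasmic reticulum, tapasin (*Tapbp*) holds the empty molecule beside the transporter, and NLRC5 is a transactivator of class I genes that acts together with RFX, CREB/ATF and NF-Y factors at their promoters. Interferons and NF-κB raise the transcription of these genes, and embryonic tissue at mid-gestation is known for low class I levels.

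*Smyd1*, the targeted gene (chr6:71213940-71322233, GRCm38, minus strand), had 101, 222 and 206 CPM in the *Smyd1-KO* hearts and 414, 379 and 270 CPM in the WT hearts. The genotypes did not overlap, and the log2 fold change was -1.01 (SE 0.30, adjusted *P* = 0.0973, edgeR), short of the threshold of 0.05. DESeq2 called it (adjusted *P* = 0.00538), and the adjusted *P* was 0.052 to 0.262 over the edgeR alternatives. Transcripts of the gene were thus counted in every *Smyd1-KO* heart, and which exons they cover was not analysed here. *Actc1*, the sarcomeric actin of the embryonic heart, was abundant in all libraries, from 3064 to 7216 CPM. Within each genotype *Smyd1* was lowest in the heart with the lowest sum of the cardiomyocyte markers described below. These were *Smyd1-KO* replicate 1 (sum 10400 CPM) and WT replicate 3 (13960 CPM). The part of cell composition in the *Smyd1* difference was not tested.

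Of the 10 genes, 8 passed the filter on low counts and *Tap2* and *Nlrc5* did not. All 8 had a higher estimate in *Smyd1-KO* hearts, from 0.09 to 2.33, with a median of 0.90, where the median of all 19372 tested genes was -0.003. A gene was called where its adjusted *P* was under 0.05 and its log2 fold change was 0.5 or more in either direction. By this rule 2 of the 8, *H2-K1* and *H2-Q4*, were called, both higher, beside 4.28% of all tested genes called in either direction, 2.86% higher and 1.42% lower. In 5 of the 8, *H2-K1*, *H2-D1*, *H2-Q4*, *H2-T23* and *Tap1*, every *Smyd1-KO* heart was above every WT heart, as for 15.9% of all tested genes. *Tap1* enters by a near tie, 0.5413 CPM in *Smyd1-KO* replicate 2 and 0.5406 CPM in WT replicate 3. With DESeq2 in place of edgeR, 4 of the 8 were called, with *H2-D1* and *H2-T23* added, beside 9.21% of all genes given an adjusted *P*. Because the genes were chosen on this same contrast, nothing is read from these counts. With 1 heart omitted, *H2-Q4* was called without *Smyd1-KO* replicate 1 and not without *Smyd1-KO* replicate 2 or 3 or WT replicate 1, 2 or 3 (log2 fold change 0.98 to 1.31). In whole hearts, more or fewer cells of a type and more or less RNA per cell cannot be told apart.

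**Figure D1:**
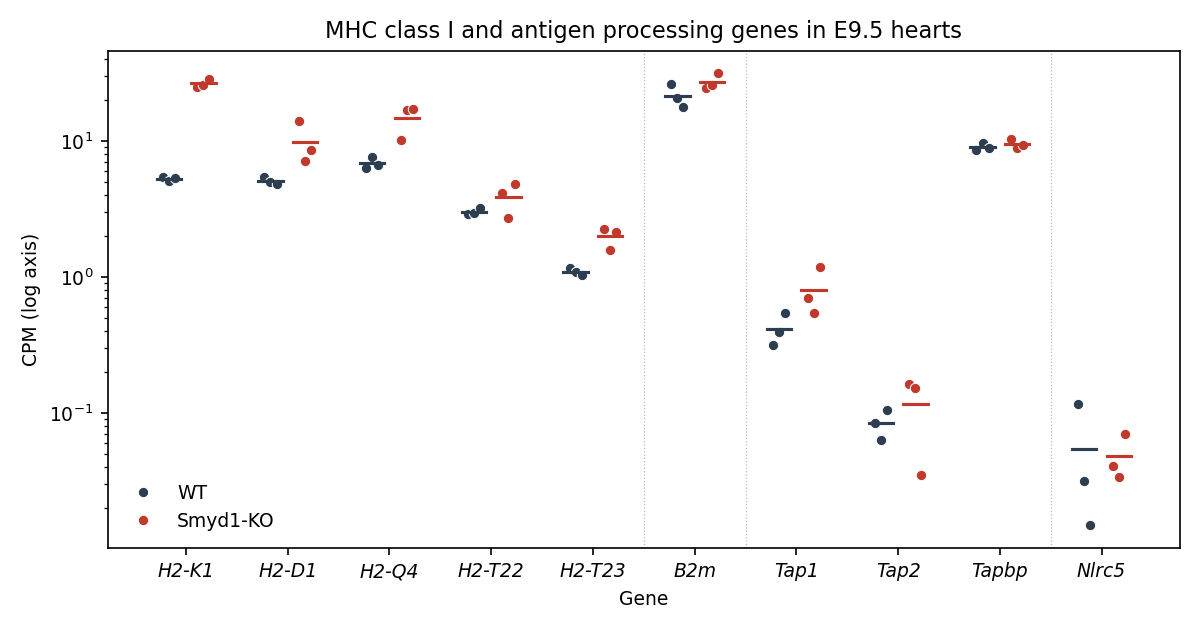
CPM of the 10 genes (log axis) in each of 3 WT (dark) and 3 *Smyd1-KO* (red) hearts, with points for hearts and bars for group means; dotted lines separate heavy chains, *B2m*, peptide transport and loading, and *Nlrc5*. *H2-K1* lay between 5.06 and 5.42 CPM in WT hearts and between 24.9 and 28.4 CPM in *Smyd1-KO* hearts.

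*H2-K1* encodes a classical heavy chain, the kind that presents peptides to CD8 T cells, and lies at chr17:33996017-34000347 on the minus strand (ENSMUSG00000061232). It had 24.9, 25.85 and 28.4 CPM in the *Smyd1-KO* hearts and 5.42, 5.06 and 5.30 CPM in the WT hearts. The genotypes were far apart and both were tight, with a coefficient of variation (CV) of 6.99% over *Smyd1-KO* and 3.54% over WT hearts, where the median CV of all tested genes was 14.45% and 12.9%. The mean was 5.02-fold higher in *Smyd1-KO* hearts (log2 fold change 2.33, SE 0.11), and it rests on 323, 321 and 353 counts in the WT hearts and 1209, 1528 and 1623 counts in the *Smyd1-KO* hearts.

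*H2-D1*, the other classical heavy chain gene listed (ENSMUSG00000073411, chr17:35262730-35267499, plus strand), had 13.9, 7.05 and 8.51 CPM in the *Smyd1-KO* hearts and 5.39, 4.98 and 4.79 CPM in the WT hearts. *Smyd1-KO* replicate 1 stood above its group, and all *Smyd1-KO* hearts were above the WT hearts. The log2 fold change was 0.96 (SE 0.26), and it was 0.62 without *Smyd1-KO* replicate 1 and 0.92 to 1.15 without any other heart. The ratio of *H2-K1* to *H2-D1* per length was 0.883, 0.892 and 0.971 in the WT hearts. The same ratio was 1.57, 3.22 and 2.93 in the *Smyd1-KO* hearts.

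*H2-Q4* encodes a non-classical heavy chain of the Qa group (ENSMUSG00000035929, chr17:35379617-35385290, plus strand). It had 10.2, 16.7 and 17.2 CPM in the *Smyd1-KO* hearts and 6.31, 7.545 and 6.70 CPM in the WT hearts. Here *Smyd1-KO* replicate 1 was the lowest of its group, the opposite of *H2-D1*, and the genotypes did not overlap. The log2 fold change was 1.10 (SE 0.22), a 2.145-fold higher mean.

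The listed genes of the T group were lower in level. *H2-T23*, which encodes the Qa-1 heavy chain read by the NKG2A receptor of natural killer cells, had 2.24, 1.59 and 2.14 CPM in the *Smyd1-KO* hearts and 1.16, 1.09 and 1.04 CPM in the WT hearts (log2 fold change 0.86, SE 0.22). *H2-T22*, whose product is bound by a subset of γδ T cells, had 4.13, 2.69 and 4.82 CPM against 2.92, 2.96 and 3.18 CPM (log2 fold change 0.36, SE 0.24). The genotypes were apart for *H2-T23* and overlapped for *H2-T22*, in which *Smyd1-KO* replicate 2 was below all WT hearts. The *H2-T22* estimate was 0.57 without that heart and 0.17 without *Smyd1-KO* replicate 3.

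*B2m* encodes the light chain shared by all these heavy chains (ENSMUSG00000060802, chr2:122147686-122153083, plus strand). It had 24.3, 25.6 and 31.3 CPM in the *Smyd1-KO* hearts and 26.0, 20.6 and 17.8 CPM in the WT hearts. The genotypes overlapped, since WT replicate 1 was above *Smyd1-KO* replicates 1 and 2, and the log2 fold change was 0.33 (SE 0.17), or 0.50 without WT replicate 1 and 0.22 without *Smyd1-KO* replicate 3 or WT replicate 3. Levels of different genes are compared per kilobase of exon, as CPM per kb. On this scale the 5 heavy chains summed to 19.8, 19.3 and 21.7 in the *Smyd1-KO* hearts and to 7.62, 7.80 and 7.53 in the WT hearts. *H2-K1* made up 42.8%, 45.6% and 44.5% of that sum in the *Smyd1-KO* hearts, and 24.2%, 22.1% and 23.95% in the WT hearts. The *B2m* level divided by the sum was 1.43, 1.54 and 1.67 in the *Smyd1-KO* hearts and 3.97, 3.07 and 2.75 in the WT hearts. The sum holds the 5 listed heavy chains only.

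Peptide transport and loading genes differed widely in level. *Tap1* had 0.699, 0.541 and 1.17 CPM in the *Smyd1-KO* hearts and 0.319, 0.394 and 0.541 CPM in the WT hearts, with 19 to 67 counts per heart (log2 fold change 0.94, SE 0.38). *Smyd1-KO* replicate 2 and WT replicate 3 were nearly equal, and *Smyd1-KO* replicate 3 was the highest, without which the estimate was 0.56. *Tap2*, the partner subunit, had 2 to 9 counts per heart. *Tapbp* had 10.4, 8.83 and 9.37 CPM in the *Smyd1-KO* hearts and 8.51, 9.56 and 8.83 CPM in the WT hearts. These 6 values overlapped, with a log2 fold change of 0.09 (SE 0.13), or 0.02 without *Smyd1-KO* replicate 1, 0.06 without WT replicate 1 and 0.14 without *Smyd1-KO* replicate 2 or WT replicate 2. *Nlrc5* (chr8:94434356-94527272) had 2, 2 and 4 counts in the *Smyd1-KO* hearts and 7, 2 and 1 counts in the WT hearts, too few to pass the filter.

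In WT hearts the order of levels per kb of exon was *B2m* (25.0 ± 4.85, SD, *n* = 3), *H2-Q4* (2.64 ± 0.243), *Tapbp* (2.47 ± 0.149), *H2-D1* (1.96 ± 0.119), *H2-K1* (1.79 ± 0.0633), *H2-T22* (0.885 ± 0.0414), *H2-T23* (0.379 ± 0.0212), *Tap1* (0.0763 ± 0.0206), *Tap2* (0.0222 ± 0.00557) and *Nlrc5* (0.00644 ± 0.00648). *H2-Q4* and *Tapbp* differed by less than their summed SDs, as did *H2-D1* and *H2-K1*, and the places from *H2-Q4* to *H2-K1* change with the length used: per kb of the longest transcript, *Tapbp* was 3.09 ± 0.186, *H2-K1* 2.81 ± 0.0993 and *H2-D1* 2.403 ± 0.146. In *Smyd1-KO* hearts *H2-K1* moved to second place behind *B2m* (31.45 ± 4.34), at 8.98 ± 0.627 per kb of exon, ahead of *H2-Q4* at 5.66 ± 1.501. *H2-D1* followed at 3.81 ± 1.403 and *Tapbp* at 2.63 ± 0.218, and from *H2-Q4* to *Tapbp* each neighbour differed by less than the summed SDs.

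Reads of related heavy chain genes can be hard to assign. The coding sequence of *H2-K1* was 91.1% identical to that of *H2-D1* and 88.5% to that of *H2-Q4*, while *H2-T22* was 67.9% identical to *H2-K1*. Even so, of all 75-base words in GENCODE transcripts, the read length of the study, 3.10% of those of *H2-K1* and 5.56% of those of *H2-D1* also occurred in transcripts of another gene. The shares were 20.7% for *H2-Q4*, 40.0% for *H2-T22* and 5.91% for *H2-T23*, of which 13.4% for *H2-Q4* was shared with the antisense gene *Gm11131* and 25.2% for *H2-T22* with the antisense gene *A930015D03Rik*. How reads with several matches were counted, and whether strand was used, is not given in the sources used here. *B2m* lies within *Patl2*, *Tap1* overlaps *Psmb9* at chr17:34187553-34187764, and both neighbours are on the opposite strand, while *Tapbp* overlaps *Zbtb22* on the same strand. Of the 75-base words of *B2m* 0 were shared with another gene, and of those of *Tap1* 2.4% were shared, with *Psmb9*. The shares were 18.6% for *Tapbp*, of which 17.5% was shared with the antisense gene *Gm19412*, 8.27% for *Tap2* and 0.0462% for *Nlrc5*. The class I and class II genes of the H2 region also differ between mouse strains in sequence, and the reference holds those of a single strain. As haplotype is not given, a difference in how well reads match the reference and a difference in RNA level cannot be told apart for these genes.

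The promoters are shown because several of the listed genes, *H2-K1*, *H2-D1*, *H2-Q4*, *H2-T23* and *Tap1*, were higher in every *Smyd1-KO* heart. RefSeq promoter sequences (GRCm38.p6) were found for 8 of the 10 genes, and not for *Tap2* and *Nlrc5*; *H2-K1* has 2 listed starts, and the upstream start was used. The 250 bases before each start were searched on both strands for GGGNNTTCC (the κB type), AANNGAAA (the interferon regulatory factor type), TGACG (the X2 or CRE type) and CCAAT. *H2-K1*, *H2-D1* and *H2-Q4* each held all 4, although the *H2-D1* window lies within an annotated exon of *H2-D1* itself, whose GENCODE start is further upstream. Exons of the gene itself also cover 154 of the 250 bases for *H2-T23* and 146 for *Tapbp*. In the *Tap1* window 240 bases lie in exons of *Psmb9*. *H2-T23* and *Tap1*, also higher in every *Smyd1-KO* heart, did not hold all 4. The share of all promoters that hold all 4 is not given here, and nothing is read from the matches about differences between the genotypes. GGGNNTTCC was found in 4.9% of 27018 promoters of this length, AANNGAAA in 21.6%, TGACG in 17.9% and CCAAT in 34.5%. *H2-T22* and *B2m* held the last 3, *H2-T23* AANNGAAA and CCAAT, *Tap1* TGACG and CCAAT, and *Tapbp* CCAAT. *H2-Q2*, a called neighbour outside the list, held AANNGAAA and CCAAT, in overlapping positions, and 65 bases of its window lie in its own exons. Where aligned, the *H2-K1* window was 87.4% identical to that of *H2-D1* over 190 columns and 76.4% to that of *H2-Q4* over 203. Matches describe letters in these windows and were not tested as binding sites. Below, capitals mark the matches on either strand, and the 10 bases next to the start are left out, for *H2-K1* (chr17:34000358-34000597, minus strand), *H2-Q4* (chr17:35379367-35379606, plus strand, inside an exon of the antisense gene *Gm11131*) and *B2m* (chr2:122147437-122147676, plus strand, no exon annotated).
H2-K1: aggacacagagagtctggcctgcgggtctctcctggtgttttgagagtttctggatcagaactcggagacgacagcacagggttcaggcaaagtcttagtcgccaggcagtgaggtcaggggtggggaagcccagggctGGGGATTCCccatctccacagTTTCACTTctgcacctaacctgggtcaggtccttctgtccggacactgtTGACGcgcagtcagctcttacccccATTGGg
H2-Q4: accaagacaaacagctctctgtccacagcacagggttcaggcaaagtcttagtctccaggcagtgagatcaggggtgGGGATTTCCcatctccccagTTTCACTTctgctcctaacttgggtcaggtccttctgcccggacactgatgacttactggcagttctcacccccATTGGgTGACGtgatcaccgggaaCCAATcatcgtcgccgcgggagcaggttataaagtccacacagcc
B2m: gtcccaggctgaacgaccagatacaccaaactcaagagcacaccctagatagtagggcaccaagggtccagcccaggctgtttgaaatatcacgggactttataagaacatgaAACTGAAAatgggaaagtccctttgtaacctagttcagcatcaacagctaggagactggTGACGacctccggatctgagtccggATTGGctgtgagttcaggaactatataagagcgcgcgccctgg

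In these sequences the κB and interferon regulatory factor types of *H2-K1* begin 111 and 90 bases before the start and those of *H2-Q4* 173 and 153 bases before it. In *H2-D1* they begin at 171 and 150 bases. *B2m* held no κB type here and an interferon regulatory factor type at 137 bases. The study also measured chromatin accessibility in E9.5 hearts of both genotypes, which was not used here.

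The listed genes other than *B2m* and *Nlrc5* lie on chromosome 17, where the tested genes whose symbols begin with H2- start between 33974659 and 37270220. Of 23 such genes, listed genes included, 6 were called, 5 higher and 1 lower, beside 2.86% of all tested genes higher and 1.42% lower. Both tested H2-K genes were called higher: *H2-K1* and, 21.4 kb from it, the transcribed pseudogene *H2-K2*, at 0.967, 1.20 and 0.981 CPM in the mutant hearts against 0.218, 0.331 and 0.210 CPM (log2 fold change 2.04, SE 0.29, adjusted *P* = 0.0139, edgeR). All 8 tested H2-Q genes had higher estimates, from 0.88 to 2.22 (median of all tested genes -0.003), and 2 of them, *H2-Q2* and *H2-Q4*, were called. The 8 estimates may not be separate, since 75-base words are shared, most often with another H2-Q gene. The shares were 21.1% for *H2-Q6*, 17% for *H2-Q7*, 12.5% for *H2-Q10*, 10.9% for *H2-Q1* and 8.07% for *H2-Q2*. *H2-Q2* had 8.21, 24.7 and 17.9 CPM in the *Smyd1-KO* and 5.15, 3.875 and 1.89 CPM in the WT hearts (log2 fold change 2.22, SE 0.48, adjusted *P* = 0.0458, edgeR), again with *Smyd1-KO* replicate 1 lowest in its group. The others, as log2 fold changes, were *H2-Q1* (1.78, SE 0.43), *H2-Q10* (2.01, SE 0.48), *H2-Q3* (1.28, SE 0.62), *H2-Q5* (0.99, SE 0.42), *H2-Q7* (0.90, SE 0.28) and *H2-Q6* (0.88, SE 0.36). None of them was called, with adjusted *P* from 0.0569 (*H2-Q10*) to 0.251 (*H2-Q3*) in edgeR.

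Distal to the H2-Q genes the estimates went both ways. *H2-T23* and *H2-T22* had the higher estimates given above, and *H2-Bl* one of 0.30 (SE 0.45), not called. *H2-T24* was called lower, with 0.514, 0.372 and 0.456 CPM in the *Smyd1-KO* and 1.98, 1.04 and 1.19 CPM in the WT hearts (log2 fold change -1.65, SE 0.32, adjusted *P* = 0.0352, edgeR). It overlaps the antisense gene *A930015D03Rik* over its whole length, as does *H2-T23*, and *H2-T22* in part. *H2-M3*, *H2-M5* and *H2-M6-ps* had estimates of -0.22 (SE 0.33), -0.50 (SE 0.22) and -0.90 (SE 0.54), and none was called. Near *H2-K1*, *H2-Ke6*, which encodes a steroid dehydrogenase, had an estimate of -0.19 (SE 0.34). Over the whole stretch, 8 of 124 tested genes were called (6.45%), and the median log2 fold change of the 101 genes without an H2- name was -0.01. Of these 101, the called genes were *Ier3*, an immediate early gene (24.9, 39.6 and 39.2 CPM in the mutant hearts, 3.22, 2.60 and 2.39 CPM in WT; log2 fold change 3.66, SE 0.23, adjusted *P* = 0.000869, edgeR), and *Trim10*, an erythroid gene (-2.64, SE 0.45, adjusted *P* = 0.0238, edgeR). Between *H2-K1* and the next called gene, *H2-Ab1*, lay 10 tested genes, *Tap1* among them, and between *H2-Ab1* and *H2-Q2* lay 57, none of them called. Of the called genes of this stretch outside the list, *H2-Ab1* and *Ier3* were called whichever heart was omitted. *H2-K2* was not called without *Smyd1-KO* replicate 2, WT replicate 2 or WT replicate 3 (adjusted *P* 0.0165 to 0.0701 over the 6 fits). *H2-Q2*, *H2-T24* and *Trim10* were each called in 1 of these fits, that without *Smyd1-KO* replicate 1, with adjusted *P* of 0.0143 to 0.171, 0.0402 to 0.119 and 0.00883 to 0.113 over the fits.

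**Figure D2:**
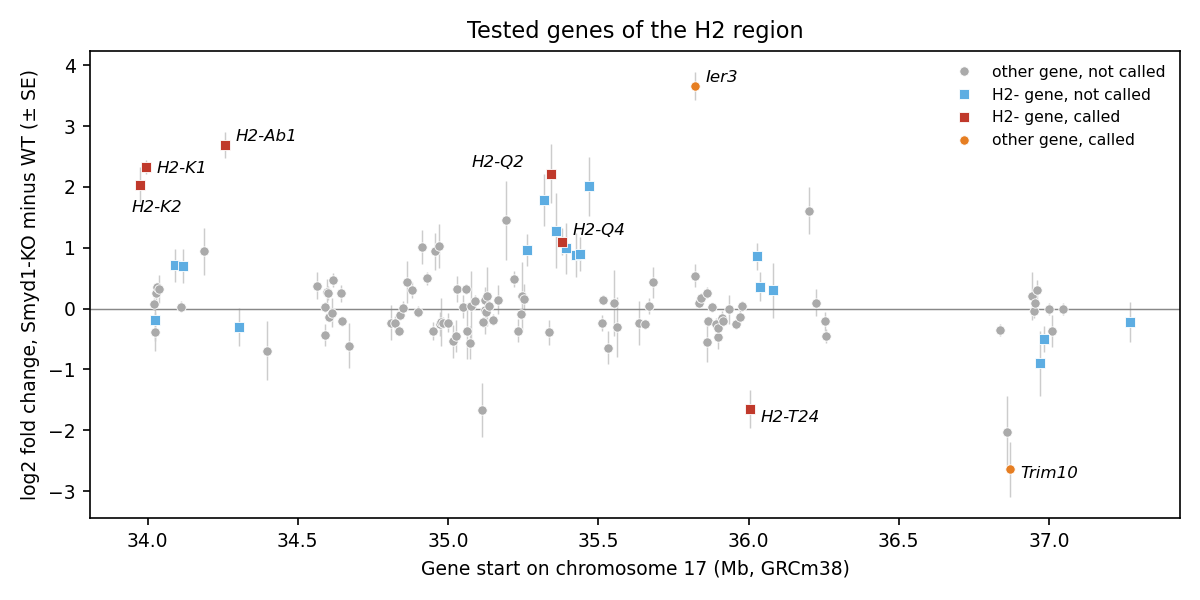
Log2 fold change (*Smyd1-KO* minus WT, with SE as bars) of the 124 tested genes of the H2 region against gene start on chromosome 17 in Mb; squares are H2- genes, circles other genes, and named genes are the 8 called. The 8 H2-Q genes near 35.3 to 35.5 Mb all lie above 0, while the 3 H2-M genes at the right have estimates from -0.90 to -0.22.

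Class II genes encode the molecules that present peptides to CD4 T cells. Of 10 listed, 5 passed the filter and 1 was called, beside 4.28% of all tested genes: *H2-Ab1*, the β chain of the I-A molecule. It had 24.6, 33.6 and 35.5 CPM in the *Smyd1-KO* hearts and 5.17, 5.64 and 3.69 CPM in the WT hearts (log2 fold change 2.69, SE 0.21, adjusted *P* = 0.00194, edgeR). Its partner chain and chaperone were low in level: *H2-Aa* was at most 0.193 CPM and *Cd74* at most 0.806 CPM in any heart. *H2-Aa* did not pass the filter, so its difference was not tested, and the log2 fold change of *Cd74* was -0.01 (SE 0.61). *H2-DMa* (0.70, SE 0.28), *H2-Oa* (0.71, SE 0.27) and *H2-Eb1* (-0.30, SE 0.31) were not called.

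Other genes supply and load the peptides. Of 8 chaperones of the loading complex and the endoplasmic reticulum, 8 were tested and 0 called by edgeR or by DESeq2, with 2 at an unadjusted *P* under 0.05 and a median log2 fold change of -0.16. The share of all tested genes at an unadjusted *P* under 0.05 is not given here, so nothing is read from such counts in any list. *Hspa5*, *Calr*, *Pdia3* and *Canx*, the most abundant, had estimates of -0.19 (SE 0.11), -0.12 (SE 0.09), -0.13 (SE 0.10) and 0.09 (SE 0.08). Of 14 genes of the proteasome and of peptide trimming, 12 were tested and 0 called by edgeR (5 at an unadjusted *P* under 0.05), 1 lower by DESeq2 and by edgeR without *Smyd1-KO* replicate 1, with a median of -0.19. *Psmb8* and *Psmb9*, the immunoproteasome subunits encoded next to *Tap1* and *Tap2*, did not pass the filter and were at most 0.152 CPM. The subunits they replace were abundant: *Psmb6* ranged from 197 to 255 CPM and *Psmb5* from 55.2 to 106 CPM (log2 fold changes -0.23, SE 0.09, and -0.57, SE 0.17). *Blmh* and *Npepps*, cytosolic peptidases, had estimates of -0.16 (SE 0.11) and 0.27 (SE 0.08), *Psme3*, a proteasome activator subunit, -0.40 (SE 0.11), and *Erap1*, which trims peptides in the endoplasmic reticulum, -0.29 (SE 0.19).

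A list of 15 regulators of class I promoters, which leaves out *Nlrc5*, passed the filter in full. Of these, 0 were called by edgeR and 1 lower by DESeq2, or by edgeR without WT replicate 1. In edgeR 8 were at an unadjusted *P* under 0.05, and the median log2 fold change was -0.11. *Nfya*, *Creb1*, *Usf1* and *Nfkb1*, the most abundant, had log2 fold changes of -0.11 (SE 0.08), 0.02 (SE 0.14), -0.07 (SE 0.09) and -0.11 (SE 0.07). *Rfx5*, the DNA-binding subunit with which NLRC5 acts, had 11.9, 10.3 and 11.0 CPM in the *Smyd1-KO* and 13.7, 18.8 and 18.4 CPM in the WT hearts, below the WT hearts in all *Smyd1-KO* hearts but not called (-0.61, SE 0.15, adjusted *P* = 0.0648, edgeR). *Ciita*, the class II transactivator, was at most 0.403 CPM.

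Of 18 interferon receptors and signalling genes, 18 were tested, with 1 called higher and 1 lower, beside 2.86% of all tested genes higher and 1.42% lower. There were 6 at an unadjusted *P* under 0.05, and the median log2 fold change was -0.01. DESeq2 called 2 higher and 1 lower, beside 9.21% of all genes called by DESeq2 in either direction. *Irf8*, which encodes an interferon regulatory factor, had 1.89, 2.08 and 2.58 CPM in the mutant hearts against 1.18, 0.945 and 0.751 CPM (1.19, SE 0.25, adjusted *P* = 0.0413, edgeR). *Irf9*, which encodes another transcription factor of that family, had 9.87, 10.5 and 11.5 CPM against 14.1, 17.4 and 17.9 CPM (-0.64, SE 0.14, adjusted *P* = 0.0454, edgeR). With 1 heart omitted, *Irf8* was called only without *Smyd1-KO* replicate 1 (adjusted *P* 0.0368 to 0.162 over the 6 fits) and *Irf9* only without WT replicate 1 (0.0480 to 0.185). *Jak1*, *Ifnar1*, *Jak2* and *Irf3*, the most abundant, had estimates of -0.14 (SE 0.07), 0.03 (SE 0.07), 0.00 (SE 0.08) and -0.34 (SE 0.09), none of them called.

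Of 40 interferon-stimulated genes, 16 did not pass the filter, among them *Isg15*, *Ifit1*, *Ifit3*, *Mx1*, *Rsad2*, *Usp18* and *Cxcl10*. Of the 24 tested, 1 was called higher by edgeR, beside 2.86% of all tested genes, with 9 at an unadjusted *P* under 0.05 and a median log2 fold change of -0.08. DESeq2 gave an adjusted *P* for 25 and called 1 higher and 2 lower, and edgeR without *Smyd1-KO* replicate 1 called 2 of 27, both higher. The called gene was *Bst2*, which encodes tetherin, with 4.28, 5.28 and 5.99 CPM in the mutant hearts against 2.13, 2.095 and 1.82 CPM (1.36, SE 0.20, adjusted *P* = 0.0145, edgeR), a call lost without *Smyd1-KO* replicate 2, WT replicate 2 or WT replicate 3 (0.00871 to 0.0858 over the 6 fits). *Ifitm2*, *Trim25*, *Eif2ak2* and *Ifit2*, the most abundant, had estimates of 0.36 (SE 0.09), 0.10 (SE 0.17), -0.18 (SE 0.12) and 0.02 (SE 0.18). Among genes that did pass the filter, *Iigp1* was lower in all *Smyd1-KO* hearts, with 0.0617, 0.254 and 0 CPM against 1.04, 1.23 and 0.601 CPM, and was not called (-3.13, SE 0.83, adjusted *P* = 0.0726, edgeR).

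Of 8 class I-like genes outside the H2 region 5 were tested and 0 called by edgeR (2 at an unadjusted *P* under 0.05), with 1 called higher by DESeq2, and by edgeR with no filter, with at least 10 counts in every heart, or without *Smyd1-KO* replicate 1, and with a median of -0.13. *Fcgrt*, the heavy chain of the neonatal Fc receptor and a partner of *B2m*, had 1.79, 1.37 and 3.87 CPM in the mutant hearts against 0.806, 0.599 and 0.616 CPM, apart but short of the threshold (1.80, SE 0.42, adjusted *P* = 0.0542, edgeR). *Cd1d1*, *Procr* and *Mr1* had estimates of -0.27 (SE 0.19), -0.13 (SE 0.31) and 0.59 (SE 0.22). Of 5 NKG2D ligands 4 were tested and 0 called by edgeR or DESeq2, with 0 at an unadjusted *P* under 0.05 in edgeR and a median of -0.01, and *Ulbp1*, *Raet1d*, *Raet1e* and *H60b* had estimates of -0.02 (SE 0.26), -0.05 (SE 0.29), -0.01 (SE 0.28) and 0.45 (SE 0.23).

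**Figure D3:**
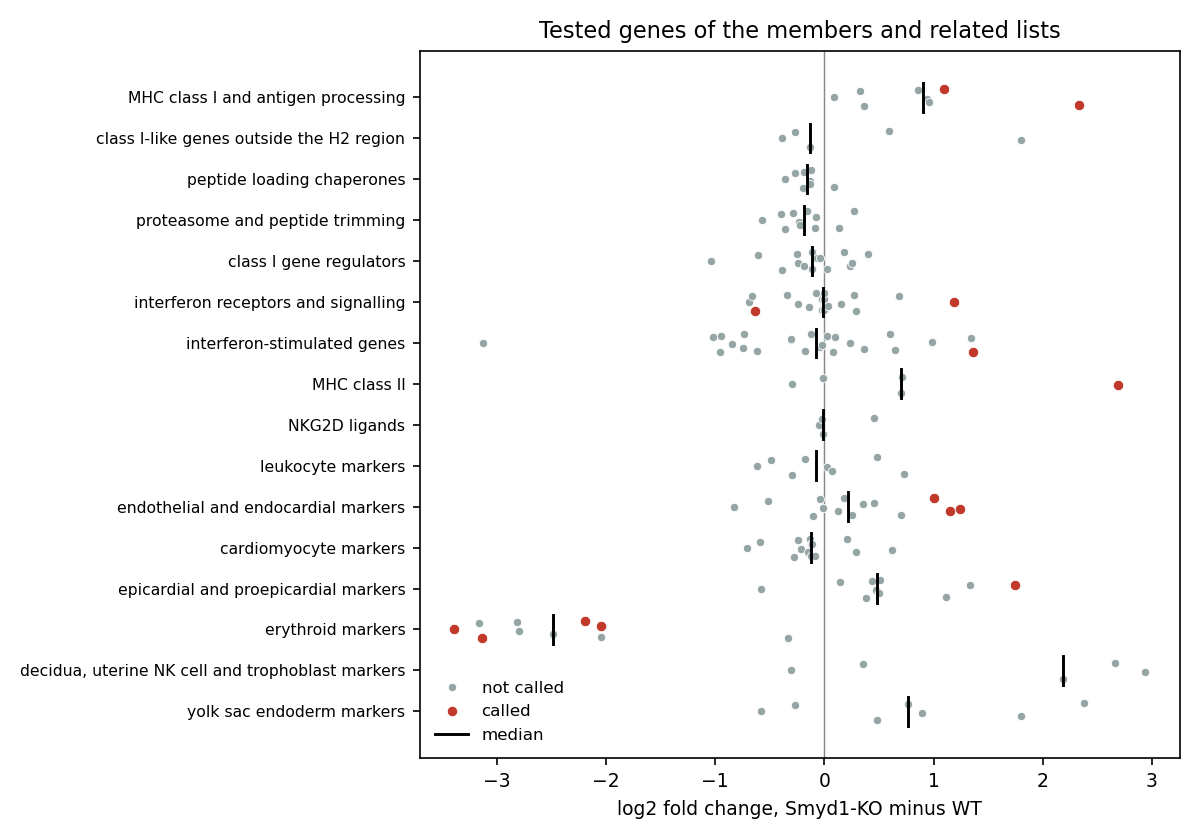
Log2 fold change (*Smyd1-KO* minus WT) of each tested gene of the listed genes and of 15 related lists, with called genes in red, others in grey and the median of each list as a bar. The class I and antigen processing genes have a median of 0.90, the 8 loading chaperones of -0.16 and the 11 erythroid markers of -2.49.

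Leukocytes express class I and class II genes strongly, so their markers were read beside the listed genes. Of 18 leukocyte markers 8 were tested and 0 called by edgeR (2 at an unadjusted *P* under 0.05), 1 higher by DESeq2, with a median log2 fold change of -0.08. The list summed to 14.25, 14.5 and 15.7 CPM in the *Smyd1-KO* and 17.05, 13.5 and 13.1 CPM in the WT hearts, with *Laptm5* most abundant (3.28 to 3.96 CPM in *Smyd1-KO* and 2.90 to 3.66 CPM in WT hearts), followed by *Mrc1*, *Cd68* and *Lyz2*. *Ptprc*, the common leukocyte antigen, was at most 0.118 CPM, *Itgam* at most 0.0617 CPM and *Adgre1* at most 0.185 CPM in any heart.

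Markers of other cell types are given beside the 4.28% of all tested genes that were called. Of 14 endothelial and endocardial markers 3 were called higher, *Flt1* (1.15, SE 0.18, adjusted *P* = 0.0192, edgeR), *Sox17* (1.24, SE 0.17, adjusted *P* = 0.0129, edgeR) and *Cldn5* (1.0, SE 0.19, adjusted *P* = 0.0320, edgeR), and by DESeq2 4 were called higher and 2 lower. With 1 heart omitted, 4, 0 and 2 were called without *Smyd1-KO* replicates 1, 2 and 3, and 2, 1 and 0 without WT replicates 1, 2 and 3. The list summed to 958, 1156 and 1470 CPM in the *Smyd1-KO* and 1047, 1086 and 883.5 CPM in the WT hearts, overlapping, with *Kdr* most abundant (0.70, SE 0.17, not called) and *Cdh5*, *Plvap* and *Tie1* at -0.01 (SE 0.15), -0.04 (SE 0.17) and -0.10 (SE 0.17). No marker of the list was at 0. Of 10 epicardial and proepicardial markers 1, *Krt19*, was called higher, and DESeq2 called 3 higher and 1 lower of 9 (*Krt19* 129, 235 and 211 CPM in the mutant hearts, 73.4, 54.1 and 43.3 CPM in WT; 1.75, SE 0.27, adjusted *P* = 0.0173, edgeR). That list summed to 356, 550 and 621 CPM in the *Smyd1-KO* and 325.5, 313 and 301.5 CPM in the WT hearts, led by *Krt19*, *Gata5*, *Upk3b* and *Wt1*, with none at 0. Of its markers 4, 0 and 1 were called without *Smyd1-KO* replicates 1, 2 and 3, and 1, 0 and 0 without WT replicates 1, 2 and 3. In the same fits *Flt1* was called only without *Smyd1-KO* replicate 1 or 3 (adjusted *P* 0.00331 to 0.0882 over the 6 fits) and *Cldn5* only without *Smyd1-KO* replicate 1 or WT replicate 1 (0.0348 to 0.139). *Sox17* lost the call without *Smyd1-KO* replicate 2 or WT replicate 3 (0.00620 to 0.0615), and *Krt19* without *Smyd1-KO* replicate 2 or WT replicate 2 or 3 (0.00426 to 0.104).

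Of 11 erythroid markers tested 8 were called lower by DESeq2 and 4 by edgeR, among them *Gata1* (-3.14, SE 0.68, adjusted *P* = 0.0445, edgeR), *Alas2* (-2.19, SE 0.46, adjusted *P* = 0.0428, edgeR) and *Nfe2* (-2.05, SE 0.23, adjusted *P* = 0.00679, edgeR). Among all genes, edgeR called 1.42% lower, and DESeq2 called 9.21% in either direction. With 1 heart omitted, edgeR called 1256, 248 and 344 of all tested genes without *Smyd1-KO* replicates 1, 2 and 3. Without WT replicates 1, 2 and 3 it called 501, 97 and 171. In the same order, 10, 3 and 1, and 2, 0 and 1, of the erythroid markers were called lower. Of these genes, *Gata1* and *Alas2* were called only without *Smyd1-KO* replicate 1 (adjusted *P* 0.0143 to 0.162 and 0.00697 to 0.157 over the 6 fits). *Nfe2* lost the call without WT replicate 2 (0.00898 to 0.0522). The list summed to 28.7, 284 and 164 CPM in the *Smyd1-KO* and 752, 1005 and 964 CPM in the WT hearts, with *Hba-x*, *Hbb-bh1*, *Hbb-y* and *Hba-a1* most abundant and none at 0. Of 14 cardiomyocyte markers 0 were called by edgeR or DESeq2, with 1 at an unadjusted *P* under 0.05 in edgeR, and 1 was called higher by edgeR without *Smyd1-KO* replicate 1. The list summed to 10400, 21660 and 21800 CPM in the *Smyd1-KO* and 23590, 21720 and 13960 CPM in the WT hearts, led by *Actc1*, *Myh6*, *Myh7* and *Tnnt2*, with none at 0. *Smyd1-KO* replicate 1 had the lowest cardiomyocyte and erythroid sums of all hearts. The part of the endothelial, epicardial and erythroid markers in the differences of the listed genes was not tested.

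Markers of extraembryonic and maternal tissue varied by heart. Of 13 decidual, uterine natural killer cell and trophoblast markers 5 were tested, with 0 called by edgeR, 0 at an unadjusted *P* under 0.05 and 1 of 6 called higher by DESeq2. Of the 5, 4 had higher estimates, with a median of 2.19, and without *Smyd1-KO* replicate 1 edgeR called 2 of 8, both higher. The list summed to 1.501, 3.57 and 10.9 CPM in the *Smyd1-KO* and 3.91, 0.772 and 0.796 CPM in the WT hearts, with *Prl8a2* most abundant and *Prl3c1* at 0 counts in all hearts. Of 8 yolk sac endoderm markers 7 were tested, with 0 called by edgeR, 1 at an unadjusted *P* under 0.05, 1 called higher by DESeq2, and by edgeR with no filter, and a median of 0.77. That list summed to 35.25, 3.42 and 80.55 CPM in the *Smyd1-KO* and 2.48, 37.9 and 21.9 CPM in the WT hearts, with *Afp* most abundant and *Apoc2* at 0 counts. Neither sum separated the genotypes, and the part of these markers in the differences of the listed genes was not tested.

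The mean of the 8 tested genes, each centred on its own mean log2 CPM, was 0.44, 0.21 and 0.61 in the *Smyd1-KO* and -0.42, -0.41 and -0.42 in the WT hearts. Among 12926 tested genes outside the lists whose log2 CPM averaged 1 or more, the pattern over the 6 hearts was closest for *Arsa*, *Arhgef25*, *Gprc5c*, *Arhgap45* and *C130074G19Rik*. As a description, without a *P*-value, Pearson's *r* was 0.9977, 0.9973, 0.9970, 0.9930 and 0.9928, over hearts that fall into groups by genotype. *Arsa* had 18.8, 17.2 and 21.3 CPM in the *Smyd1-KO* and 12.7, 12.9 and 12.6 CPM in the WT hearts.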

How the data were processed

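RNA of E9.5 hearts had been poly A selected, sequenced as paired-end reads of 75 bases and aligned to mm10 with STAR by the authors. They deposited raw counts per gene for 3 *Smyd1-KO* and 3 WT hearts. The counting tool, annotation release and strand setting are not given in the sources used here. The deposited normalized table was not used. Groups and replicate numbers came from the labels, and 0 value columns lacked a sample.

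Counts were analysed in R 4.3.3 with edgeR 4.0.16 (filterByExpr, TMM, quasi-likelihood test, Benjamini-Hochberg adjustment over 19372 genes), with genotype as the only term; the procedure was tested on simulated data. SE was the absolute log2 fold change divided by the square root of the F statistic. Log2 CPM used a prior count of 2. DESeq2 1.42.0, other scaling factors, other filters, a replicate block and leaving out each heart were alternatives. The biological CV between hearts was 22.5%.

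The members and lists were chosen with earlier results of these data known. Genes were named by rule: the members, the called genes and up to 4 of the most abundant of each list, all tested H2- genes, called genes of the H2 region, 5 genes of like pattern and *Smyd1*. *Psmb5*, *Psmb8*, *Psmb9*, *Erap1*, *Rfx5*, *Ciita*, *Iigp1*, *Cd74*, *H2-Aa*, *Ptprc*, *Itgam*, *Adgre1*, *Prl3c1*, *Apoc2* and the interferon-stimulated genes below the filter were named after their values were seen. *Ahsp*, an erythroid marker, was not analysed here, and some list genes that the rule names are not reported here. Positions and exonic lengths came from GENCODE M21 (GRCm38), in which 54495 genes of the table were found. Promoter alignments were made with Biopython 1.88 in Python 3.11.15 with end gaps free, summaries with pandas 2.3.3 and plots with matplotlib 3.10.9.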

Additional observations from a re-analysis of the deposited data

How the results depend on the processing

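The number of genes called among all tested genes was 830, and it was 822 to 1033 with RLE or upper-quartile factors, without mitochondrial and haemoglobin genes, with no filter, with at least 10 counts in every heart or with no fold limit. DESeq2 called 1747, and fits with 1 heart omitted called 97 to 1256: 1256, 248 and 344 without *Smyd1-KO* replicates 1, 2 and 3, and 501, 97 and 171 without WT replicates 1, 2 and 3. Of the listed genes, 2 were called, 4 with DESeq2, and 1 to 2 without 1 heart. The median log2 fold change of the listed genes, 0.90, was 0.67 with DESeq2 and 0.67 with no filter, both over 10 genes since *Tap2* and *Nlrc5* enter, and 0.68 to 1.0 without 1 heart. *Smyd1*, at -1.01, was called with DESeq2 (-1.0, adjusted *P* = 0.00538), and was -1.20 to -0.73 without 1 heart, with an adjusted *P* of 0.052 to 0.262 over the edgeR alternatives. No tested listed gene changed sign under the 14 alternatives.

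Replicate numbers are shared by different embryos, and same-numbered hearts did not deviate together (correlations of -0.2162, -0.0538 and -0.1815). With the replicate number as a block, 59 genes were called in all and 1 of the listed genes, *H2-K1*. The block leaves fewer residual degrees of freedom, and the lost calls are not read as smaller effects.

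Depth limits *Tap1*, with 19 to 67 counts per heart, and more so *Tap2* and *Nlrc5*, with 1 to 9. Fits without 1 heart use fewer samples. For the numbers of genes called with DESeq2 the cause was not tested.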
